A study of Komagataella pastoris with 6 samples.

Results

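The vacuole, endosome and autophagy genes of the methylotrophic yeast Komagataella pastoris (Pichia pastoris) were compared between a control strain and a strain that overexpresses Ilv3. Members were the genes whose deposited product description names the vacuole, an endosome, an ESCRT complex, autophagy, a Vid vesicle, the Cvt pathway, retromer or endocytosis. Descriptions that also name an aspartic or aspartyl protease, amino acids, ubiquitin, iron, actin or sterols were left out. This rule found 78 of 5030 genes. Genes without such a description were not reached by it, so the list is a described part of the system rather than all of it. The control was HTX-33, labelled WT, and the other strain was HTX33_ILV3, labelled as overexpressing Ilv3, with 3 biological replicates each. Both strains grew in basal salt medium with 0.5% methanol and were harvested in exponential phase, so methanol induction is shared by all 6 cultures. The sources used here do not give the promoter or copy number of the introduced gene, the number of clones, or other changes carried by HTX-33.

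The yeast vacuole is an acidic compartment that degrades proteins and stores phosphate, metals and amino acids. A proton pump, the V-ATPase, acidifies it, and its hydrolases arrive from the Golgi through endosomes as inactive precursors that are matured inside it. The ESCRT complexes sort membrane proteins into vesicles within late endosomes, retromer returns receptors to the Golgi, and SNARE and tethering proteins fuse the membranes. Autophagy carries cytoplasm and organelles into the vacuole, and the related cytoplasm-to-vacuole targeting (Cvt) route delivers some hydrolases. In this yeast the vacuole is also known for pexophagy, the selective breakdown of the peroxisomes that cells build up on methanol.

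Transcript levels were deposited under the name FPKM, but each library summed to 1000000, so they are given here as TPM, a share of the library. The name implies scaling by gene length, which was not checked here for want of gene lengths, so every order or ratio of levels between genes holds only if the values are length-scaled. The depth is unknown and no counting interval can be given. Because each value is a share, a change in a transcript per cell cannot be told apart from a change in the total it is divided by or in the fraction of cells that express it. ILV3 (PAS_chr1-4_0458) lay between 79.8 and 91.9 TPM in the control libraries and between 2564 and 2680 TPM in the ILV3 libraries, as its label says. Values are mean ± SD over n = 3 libraries, and each log2 change is the ILV3 strain minus the control on the scale of log2(TPM + 1), from a limma fit of 5025 genes whose p-values were adjusted over all of them by Benjamini-Hochberg. A gene is said to have risen or fallen where its adjusted p was under 0.05, two-sided.

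All 78 members passed the filter at a mean of 1 TPM, 14 rose, 26 fell and 38 did not pass the test. Called members were thus 51.3% of those tested, against 49.3% of all tested genes. The risers were 17.9% against 22.1% of all genes, and the fallers 33.3% against 27.2%, so the shares lay near those of the whole transcriptome. The counts by role given below are to be read beside these shares of all tested genes. The split depended on the scaling, since quantile normalization gave 21 members higher and 20 lower, 51.2% of the called members higher in place of 35%. For all called genes that share moved from 44.9% to 54.1%. The median log2 change was -0.07 over the members and -0.02 over all tested genes. In 46 of the 78 members the libraries of the strains did not overlap, 16 of them higher and 30 lower. Of all tested genes 57.2% did not overlap, 26.8% higher and 30.5% lower. The authors' deposited table makes the same comparison of strains and is not an independent check. In it 75 of the 78 members have the same sign of change as here, as do 4815 of the 5025 tested genes. The p-value deposited there is not labelled as adjusted. It was under 0.05 for 37 of the 40 called members, 44 of all 78 members and 2751 of all 5030 genes.

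Most of the called changes were small. Of the 40 called members, 37 changed by less than 1.5-fold and 2 by 1.5-fold or more but less than 2-fold. The remaining 1 changed by at least 2-fold. A call at that size was made for 1 of the 78 members and for 3.10% of all tested genes. Calls with a log2 change of at least 0.5 were made for 5.13% of the members and 14.1% of all tested genes. The summed level of the members was 10772 ± 57.7 TPM in the control strain and 10686 ± 102 TPM in the ILV3 strain, about 1.08% and 1.07% of the transcriptome. Their control levels ranged from 7.96 to 1200.3 TPM with a median of 70.1 TPM, against a median of 49.8 TPM over all genes. The most abundant member was the V1 subunit E of the proton pump, and 8 members were among the tenth of genes with the highest control levels. Within a strain the members varied little, with a median coefficient of variation of 4.57% in the control and 3.76% in the ILV3 strain, against 5.60% and 4.51% over all genes.

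**Figure D1:**
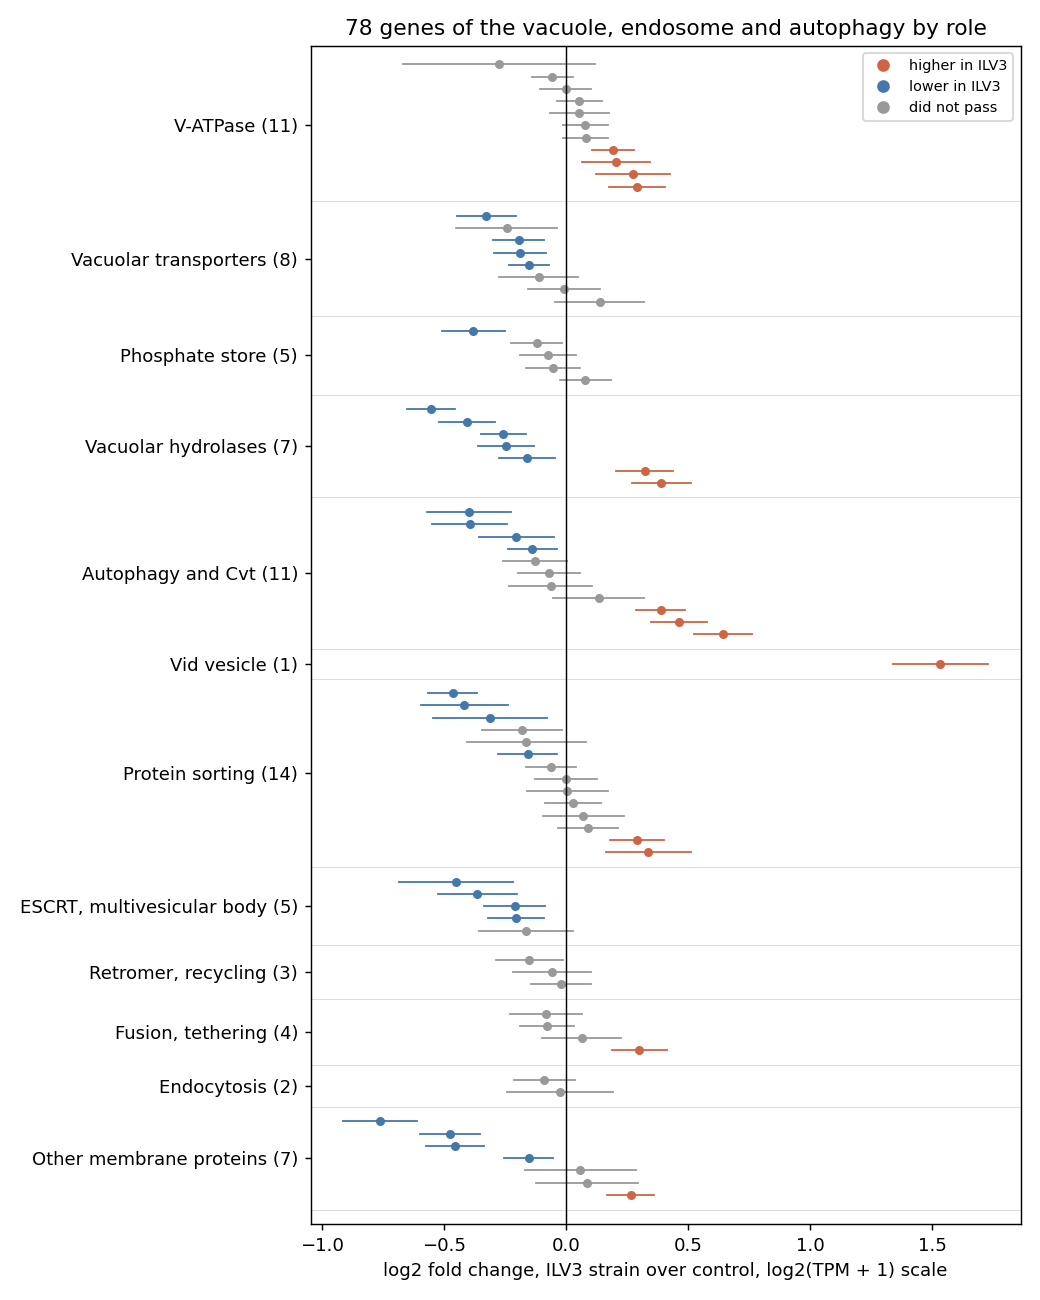
Log2 change (x axis, ILV3 strain over control, log2(TPM + 1) scale) of the 78 genes grouped by role, 1 point per gene with its 95% confidence interval from limma. Changes ran from -0.76 to 1.53, most lay between -0.5 and 0.5, and the hydrolase and autophagy groups held risers and fallers side by side.

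**Figure D2:**
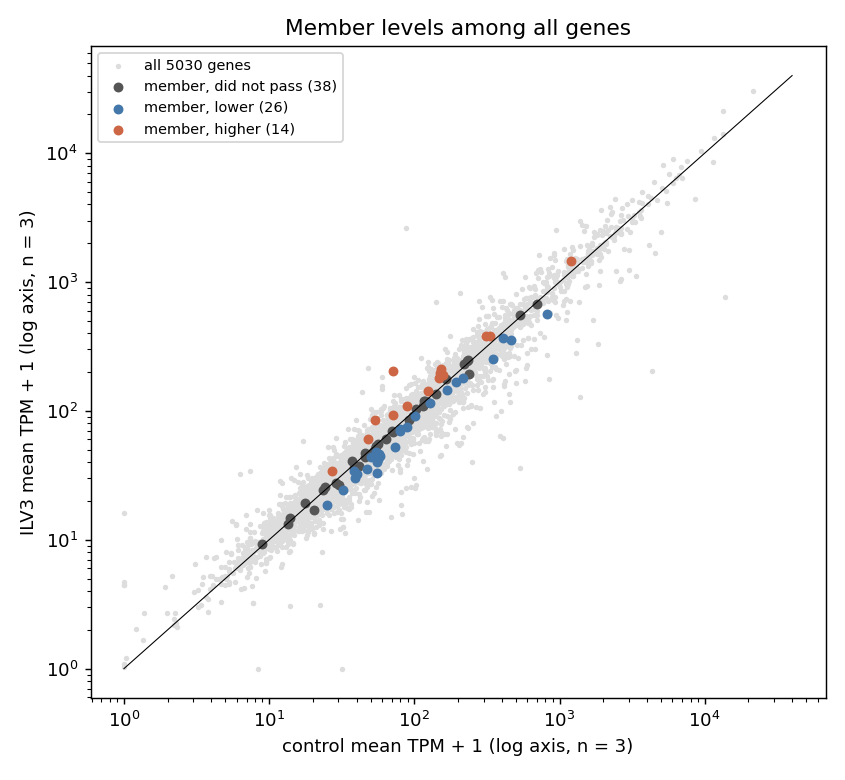
Mean level in the ILV3 strain (y axis) against the control (x axis), both in TPM + 1 on log axes with n = 3 libraries, for all 5030 genes in light grey and the 78 members in colour or dark grey. The line marks equal levels, and apart from 1 gene the members lay close to it.

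The member that changed most was PAS_chr4_0047, described as a peripheral membrane protein of Vid (vacuole import and degradation) vesicles. In Saccharomyces cerevisiae such vesicles take part in the breakdown of gluconeogenic enzymes. Its libraries lay at 61.5, 72.4 and 75.9 TPM in the control strain and at 201, 189 and 223 TPM in the ILV3 strain. Every ILV3 library was far above every control library. The mean rose from 69.9 ± 7.52 to 204 ± 17.2 TPM, the means differing 2.92-fold (log2 change 1.53, SE 0.09, adjusted p = 1.29e-06). It was the single member at or above 2-fold and the single one assigned to this role.

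Vacuolar hydrolases, which break down proteins, glycans and phosphate esters inside the vacuole, all passed the test, where 49.3% of all tested genes passed. Of the 7 genes 5 fell and 2 rose, against 27.2% falling and 22.1% rising over all tested genes. The summed level of the 7 genes was 1889 ± 77.5 TPM in the control libraries and 1512 ± 32.8 TPM in those of the ILV3 strain (ratio 0.800). The largest part of that came from PAS_chr1-1_0226, described as proteinase B, a subtilisin-type serine protease that matures other vacuolar hydrolases. It lay at 844, 793 and 830.0 TPM in the control strain and at 558, 579 and 545 TPM in the ILV3 strain, with a wide gap between the strains (log2 change -0.55, SE 0.04, adjusted p = 1e-05). A second gene with the same description, PAS_chr1-4_0548, moved the other way. It lay at 156, 140 and 154 TPM in the control strain and at 202, 199 and 189 TPM in the ILV3 strain, again with no overlap (log2 change 0.39, SE 0.05, adjusted p = 0.000319). The level of the first gene was 5.49 ± 0.159 times that of the second in the control and 2.85 ± 0.0743 times in the ILV3 strain. An exact permutation test of this log ratio gave p = 0.1, two-sided, the smallest that 3 libraries against 3 allow, and it was 1 of 5 such pairs compared. The sources used here do not say how reads were divided between genes of like sequence.

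The carboxypeptidase yscS, PAS_chr4_0686, which trims the carboxyl end of peptides, fell from 465 ± 28.9 to 351 ± 5.68 TPM (log2 change -0.41, SE 0.05, adjusted p = 0.000194). Its control libraries, at 483, 432 and 481 TPM, all lay above its ILV3 libraries, at 345, 356 and 352 TPM. A vacuolar aminopeptidase (PAS_chr3_0803) fell from 215 ± 4.19 to 180.1 ± 4.10 TPM (log2 change -0.26, and -0.17 with quantile normalization). The repressible alkaline phosphatase (PAS_chr2-2_0084), a vacuolar glycoprotein, fell from 88.1 ± 3.86 to 74.2 ± 2.11 TPM. Aminopeptidase Y (PAS_chr1-4_0611), whose precursor is processed by proteinase B in Saccharomyces cerevisiae, was the other riser, at 47.9, 44.7 and 48.4 TPM in the control strain and 60.1, 58.9 and 57.9 TPM in the ILV3 strain (log2 change 0.32, adjusted p = 0.000793). The fall of the alpha mannosidase (PAS_chr4_0790), which degrades free oligosaccharides, was weak, from 101 ± 4.19 to 89.9 ± 3.28 TPM (adjusted p = 0.0264). That call was lost with the replicate number as a block (adjusted p = 0.0723), with quantile normalization (0.0728) and without control replicate 1 or 3 or ILV3 replicate 1 or 3 (0.0849 to 0.0926), with 0.0102 to 0.0926 as the range of its alternatives.

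A further 3 genes of vacuolar proteolysis lie outside the 78 genes by the wording of their descriptions, and all fell. Proteinase A (PAS_chr3_1087), the aspartyl protease that starts the maturation cascade, fell from 980.4 ± 14.8 to 523 ± 4.80 TPM (log2 change -0.90, adjusted p = 1.63e-07). Carboxypeptidase Y (PAS_chr1-4_0013), a marker hydrolase of the yeast vacuole, fell from 321 ± 20.2 to 172 ± 2.29 TPM (log2 change -0.89). The carboxypeptidase Y inhibitor (PAS_chr3_0640) fell from 595 ± 24.4 to 282 ± 7.58 TPM (log2 change -1.07). Each of these falls was larger than that of any of the 78 members, whose lowest log2 change was -0.76.

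**Figure D3:**
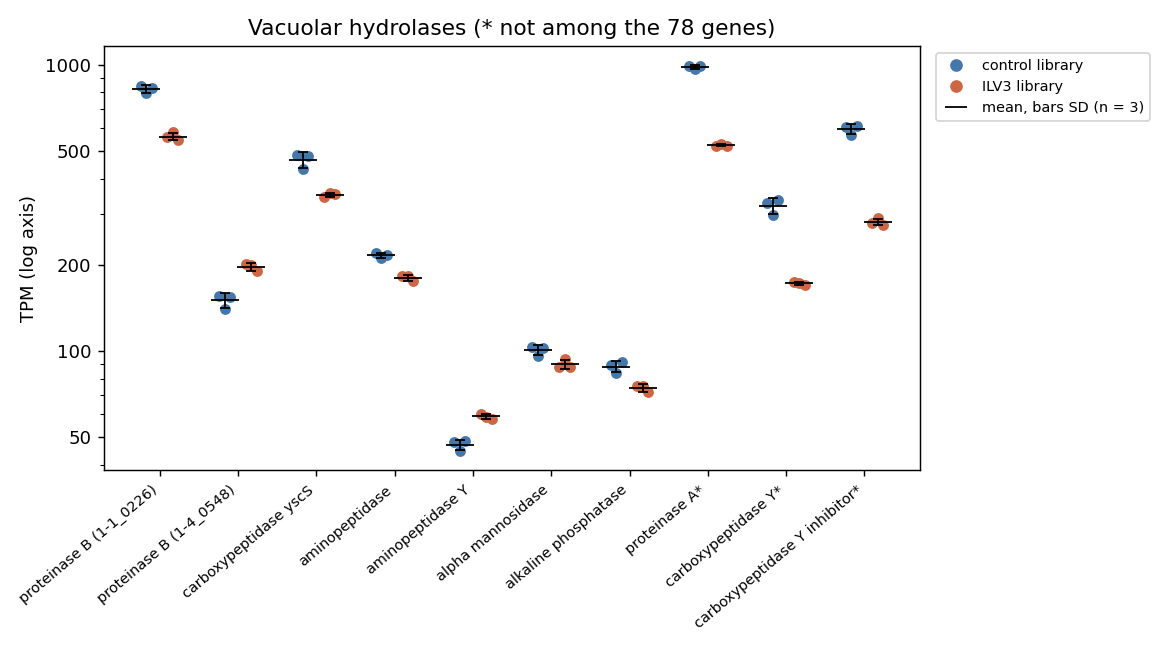
Levels in TPM (log axis) of the 7 vacuolar hydrolases among the 78 genes and, marked with an asterisk, 3 genes of vacuolar proteolysis outside them; points are libraries, black bars the mean ± SD (n = 3). Both strains are separated in all 10 genes, and the second proteinase B gene and aminopeptidase Y were the ones higher in the ILV3 strain.

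The vacuolar proton pump was the most abundant role, with a summed level of 4047 ± 142 TPM in the control strain and 4408 ± 70.0 TPM in the ILV3 strain (ratio 1.09). Of its 11 genes 4 rose and 7 did not pass. Under quantile normalization 7 were called higher and 1 lower, the additions being subunit D (adjusted p = 0.0143), subunit d (0.00687) and the lower of the subunit a genes (0.0263) among the risers, and subunit B (0.0400) as the faller. The pump has a peripheral V1 sector that hydrolyses ATP and a membrane V0 sector that carries protons. Of the V1 subunits, E (PAS_chr3_0704) lay at 1120, 1309 and 1172 TPM in the control strain and at 1553, 1403 and 1397 TPM in the ILV3 strain. The groups did not overlap (log2 change 0.27, SE 0.07, adjusted p = 0.00771). Subunit F (PAS_chr4_0674) rose from 311 ± 16.2 to 381 ± 13.7 TPM (log2 change 0.29, SE 0.05, adjusted p = 0.00124), and subunit C (PAS_chr2-1_0246), which joins the sectors, rose from 333 ± 4.37 to 380.3 ± 7.56 TPM (log2 change 0.19, adjusted p = 0.00262). Subunit D (PAS_chr1-1_0195), part of the central stalk, lay at 218 ± 2.52 and 231 ± 7.08 TPM without overlap but did not pass (log2 change 0.08, 95% interval -0.01 to 0.17). Subunit B (PAS_c131_0021), which lies in the ATP-hydrolysing ring, lay at 699 ± 8.68 and 672 ± 10.9 TPM (log2 change -0.06, 95% interval -0.14 to 0.03).

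In the V0 sector, subunit c' (PAS_chr2-1_0687), a member of the proton-carrying ring, rose from 122 ± 7.06 to 141 ± 9.04 TPM (log2 change 0.21, adjusted p = 0.0210). That call was lost without control replicate 2 (adjusted p = 0.0558) and without ILV3 replicate 1 (0.0751), within a range of 0.00254 to 0.0751. The proteolipid subunit (PAS_chr3_1040), also of the ring, lay at 532 ± 18.4 and 552 ± 9.53 TPM, and subunit d (PAS_chr2-2_0227) at 231 ± 6.41 and 244 ± 5.24 TPM, neither of which passed. Neither of the genes described as subunit a, the static part of the proton path, passed. PAS_chr3_1093 lay at 117 ± 4.38 and 117 ± 3.02 TPM (95% interval of the log2 change -0.11 to 0.10) and PAS_chr1-3_0066 at 44.6 ± 2.0 and 46.4 ± 0.595 TPM (-0.06 to 0.18), the latter with a log2 change of 0.06 that became 0.12 under quantile normalization. The level of the first was 2.63 ± 0.0256 times that of the second in the control and 2.53 ± 0.0979 times in the ILV3 strain (exact permutation p = 0.3, two-sided, 3 libraries against 3).

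VMA21 (PAS_chr1-1_0410), an assembly factor of the pump, had the widest control spread of the role relative to its mean. Its control libraries lay at 259, 292 and 165 TPM, and its ILV3 libraries at 184, 190 and 201 TPM. Control replicate 3 was below all ILV3 libraries and the other controls were above them, and the gene did not pass (log2 change -0.27, adjusted p = 0.225). Without control replicate 3 the log2 change was -0.52 (adjusted p = 0.000384, range 0.000384 to 0.606 over its alternatives). In the control, subunit levels ordered as E, B, the proteolipid, C, F, d, D, c' and the subunit a genes. In that order c' and the higher subunit a gene overlapped between libraries, as did C and F, while E was 1.72 times B, if the values are length-scaled.

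**Figure D4:**
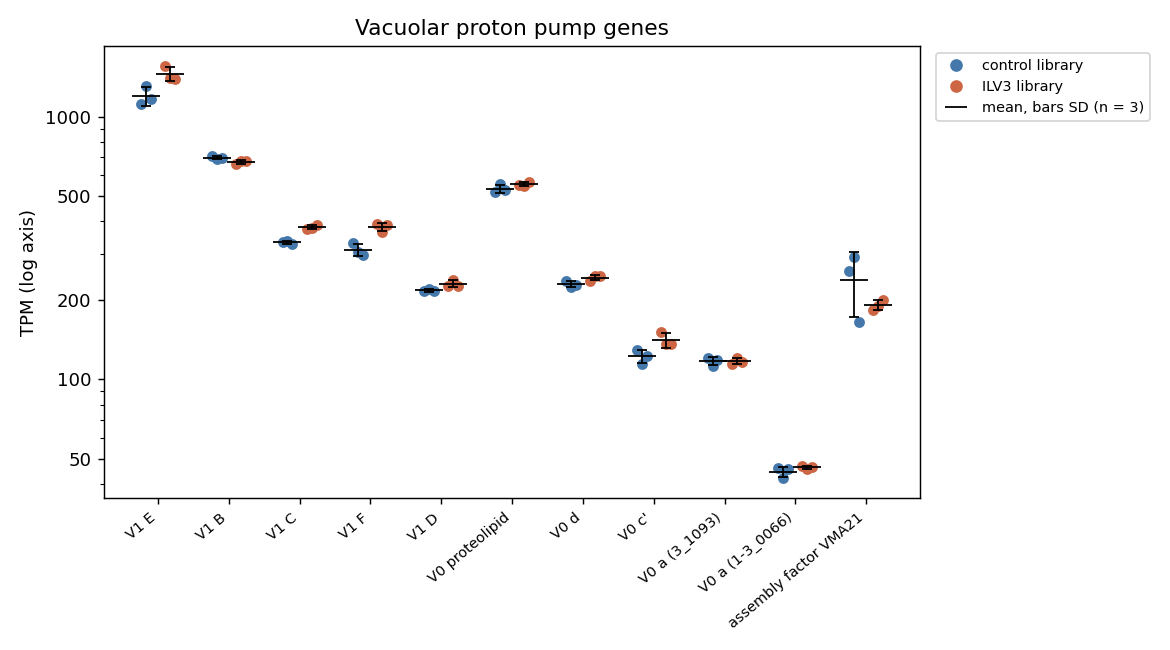
Levels in TPM (log axis) of the 11 genes of the vacuolar proton pump; points are libraries, black bars the mean ± SD (n = 3). Subunits E, C, F and c' were higher in the ILV3 strain, the subunit a genes overlapped, and VMA21 had a wide spread in the control relative to its mean.

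Transporters of the vacuolar membrane, which exchange ions and metals between vacuole and cytosol, were lower in 4 of 8 genes, and the other 4 did not pass. Their summed level went from 844 ± 26.9 to 760 ± 9.79 TPM (ratio 0.900). The most abundant, a putative Fe2+/Mn2+ transporter (PAS_chr3_0372), lay at 410, 404 and 411 TPM in the control strain and at 362, 373 and 367 TPM in the ILV3 strain. These narrow groups did not overlap (log2 change -0.15, SE 0.04, adjusted p = 0.00792). The proton/calcium exchanger (PAS_FragD_0024), which helps set cytosolic calcium, fell from 166 ± 7.65 to 145 ± 1.47 TPM (log2 change -0.19, adjusted p = 0.00726). Quantile normalization ended both calls (adjusted p = 0.0945 and 0.0503, ranges 0.00696 to 0.0945 and 0.00196 to 0.0503). A cation channel of the vacuolar membrane (PAS_chr4_0220) fell from 53.6 ± 0.866 to 46.9 ± 0.985 TPM (log2 change -0.19, adjusted p = 0.00930, and -0.11 with quantile normalization).

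Of 2 genes that share the plain description of vacuolar transporter, 1 fell. PAS_chr3_0295 fell from 56.5 ± 1.83 to 44.9 ± 1.76 TPM (log2 change -0.33, adjusted p = 0.000882), while PAS_chr3_0226 lay at 53.1 ± 3.78 and 52.8 ± 2.49 TPM (95% interval of the log2 change -0.16 to 0.14). The ratio of the first to the second was 1.07 ± 0.0512 in the control and 0.852 ± 0.0276 in the ILV3 strain, without overlap. An exact permutation test gave p = 0.1, two-sided, the smallest possible with 3 libraries against 3, and this was 1 of 5 such pairs compared. Among those that did not pass, the monovalent cation/proton antiporter (PAS_chr4_0647) was close to the threshold at 19.3 ± 1.88 and 16.1 ± 1.21 TPM (adjusted p = 0.0536). It was called lower in 6 alternatives, among them without control replicate 2 (adjusted p = 0.0106) and without ILV3 replicate 2 (0.0444), within a range of 0.0106 to 0.165. The zinc transporter (PAS_chr3_0966) lay at 36.0 ± 3.48 and 39.7 ± 2.67 TPM and was called higher with quantile normalization (adjusted p = 0.0432). The endosomal sodium/proton exchanger (PAS_chr2-1_0156) lay at 51.3 ± 4.80 and 47.3 ± 1.20 TPM, and without control replicate 2 it was called lower (0.0114, log2 change -0.19 in place of -0.11).

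Of 5 genes of the vacuolar phosphate store, where phosphate is kept as polyphosphate chains, 1 fell and 4 did not pass. The endopolyphosphatase (PAS_chr1-4_0017), which cuts such chains, lay at 59.7, 53.4 and 59.0 TPM in the control strain and 44.5, 43.1 and 43.8 TPM in the ILV3 strain, without overlap (log2 change -0.38, SE 0.06, adjusted p = 0.000551). The gene described as a vacuolar transporter chaperone (PAS_chr4_0290), a subunit of the complex that makes polyphosphate in Saccharomyces cerevisiae, lay at 235 ± 4.31 and 249 ± 11.4 TPM (95% interval of the log2 change -0.02 to 0.18), and was called higher with quantile normalization (adjusted p = 0.0147). In a pair of genes described as involved in polyphosphate accumulation, PAS_chr2-2_0420 lay at 140.3 ± 7.93 and 133 ± 1.54 TPM. The other, PAS_chr2-1_0668, lay at 97.6 ± 1.94 and 89.8 ± 3.19 TPM without overlap (95% interval of the log2 change -0.22 to -0.01). Both genes were called lower without control replicate 2 (adjusted p = 0.0326 and 0.0413, in place of 0.258 and 0.0594, ranges 0.0326 to 0.573 and 0.0413 to 0.251). The ratio of the first to the second was 1.44 ± 0.0559 in the control and 1.48 ± 0.0444 in the ILV3 strain (exact permutation p = 0.5, two-sided, 3 libraries against 3). The low-affinity phosphate transporter of the vacuolar membrane (PAS_chr3_0495) lay at 120.5 ± 2.32 and 116 ± 5.93 TPM.

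Autophagy and Cvt genes moved in both directions. Of 11 genes 3 rose, 4 fell and 4 did not pass, and the summed level was 740.4 ± 15.4 TPM in the control strain and 803 ± 30.2 TPM in the ILV3 strain. The largest riser was PAS_chr3_0931, a phosphoinositide-binding protein required for vesicle formation. It lay at 52.3, 55.4 and 51.4 TPM in the control strain and at 81.1, 86.7 and 82.4 TPM in the ILV3 strain, far apart for either spread (log2 change 0.64, SE 0.05, adjusted p = 1.22e-05). A type I membrane protein of both routes (PAS_chr2-2_0110) had the highest control level of the role and lay at 144, 157 and 156 TPM in the control strain and 201, 217 and 212 TPM in the ILV3 strain (log2 change 0.46, adjusted p = 8.78e-05). A gene described as an autophagy-related protein, PAS_chr1-4_0310, rose from 70.3 ± 1.36 to 92.3 ± 2.11 TPM (log2 change 0.39, adjusted p = 0.000108). The 3 rises kept their call in every alternative tried.

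PAS_chr1-4_0555, described as an adapter for pexophagy and the Cvt pathway, lay at 57.7, 49.5 and 58.7 TPM in the control strain and at 40.7, 44.6 and 39.7 TPM in the ILV3 strain (log2 change -0.40, SE 0.08, adjusted p = 0.00227). ATG28 (PAS_chr2-1_0596), described only as autophagy-related, which is known for its part in pexophagy in this yeast, lay at 33.3, 29.6 and 30.8 TPM in the control strain and at 24.6, 23.5 and 22.4 TPM in the ILV3 strain (log2 change -0.39, SE 0.07, adjusted p = 0.00121). Neither gene overlapped between strains. The other falls were weak. The cysteine protease required for autophagy (PAS_chr1-4_0522) fell from 79.2 ± 0.574 to 71.9 ± 1.86 TPM (adjusted p = 0.0291) and PAS_chr4_0459, described as a conserved protein of both routes, from 49.0 ± 1.28 to 42.5 ± 3.71 TPM (0.0333). Both calls were lost with the replicate number as a block (adjusted p = 0.1 and 0.0587), with quantile normalization (0.207 and 0.0907) and without control replicate 1 or 3 or ILV3 replicate 1 or 3 (0.0735 to 0.105 and 0.0795 to 0.12). The first was also lost with median-ratio scaling (0.0691). Their adjusted p ranged from 0.0282 to 0.207 and from 0.00910 to 0.12. The fallers in the role went from 4 to 3 with median-ratio scaling and to 2 in the other settings named.

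Among the genes that did not pass, the serine/threonine kinase that starts vesicle formation (PAS_chr2-1_0641) lay at 114 ± 4.35 and 109 ± 6.56 TPM (95% interval of the log2 change -0.20 to 0.06). The E2-like enzyme (PAS_chr3_0688), which conjugates an autophagy protein, lay at 91.1 ± 6.08 and 83.3 ± 2.55 TPM, and was called lower without control replicate 2 (adjusted p = 0.0121 in place of 0.101, range 0.0121 to 0.291). The scaffold of the pre-autophagosomal structure (PAS_chr2-1_0672) was the least abundant of the role, at 16.6 ± 0.750 and 18.4 ± 1.64 TPM. PAS_chr3_1107, required for fusion of the finished vesicles with the vacuole, lay at 27.9 ± 2.32 and 26.7 ± 1.37 TPM.

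**Figure D5:**
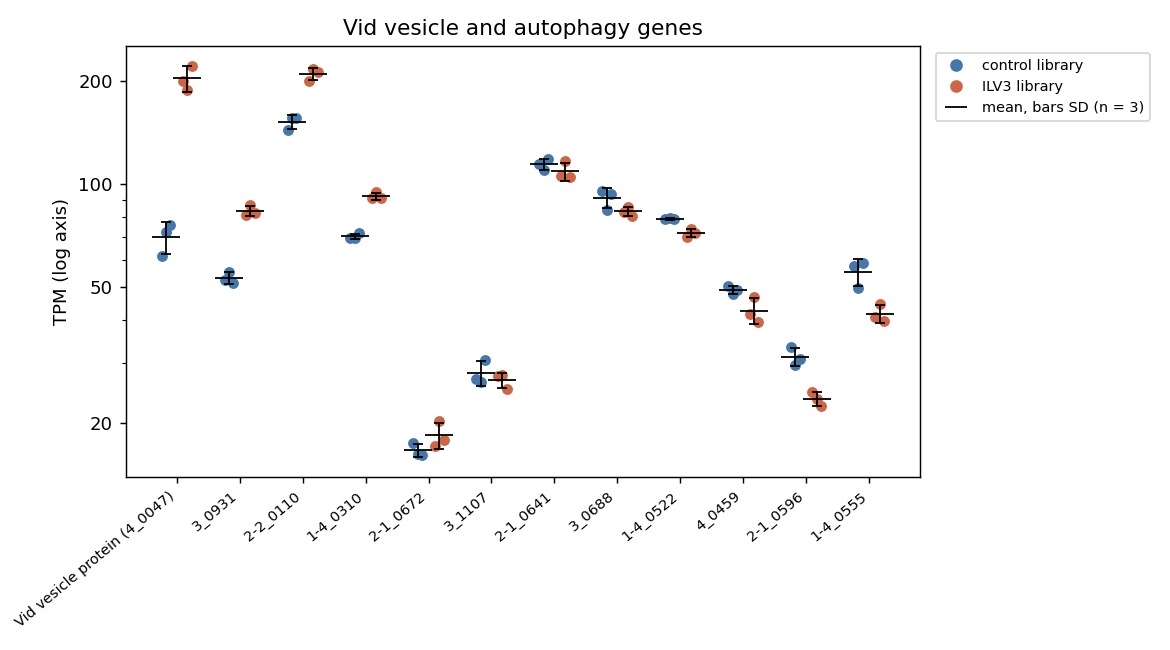
Levels in TPM (log axis) of the Vid vesicle gene and the 11 autophagy and Cvt genes, ordered after the first by log2 change and named by the end of their locus tags; points are libraries, black bars the mean ± SD (n = 3). The first 4 genes were higher in the ILV3 strain, and the last 4 were lower.

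Genes of protein sorting to the vacuole and endosome formed the largest role with 14 members, of which 2 rose, 4 fell and 8 did not pass. The most abundant, PAS_chr1-4_0178, is described as a vacuolar protein that presumably acts in traffic between endosome and vacuole. It lay at 344, 346 and 350 TPM in the control, an SD of 2.79, and at 246, 265 and 243 TPM in the ILV3 strain (log2 change -0.46, SE 0.04, adjusted p = 3.68e-05). The gene described as vps13 (PAS_chr1-1_0211), a lipid transfer protein in Saccharomyces cerevisiae, fell from 46.4 ± 3.90 to 34.5 ± 2.62 TPM (log2 change -0.42, adjusted p = 0.00208). The risers were PAS_FragB_0020, described as sorting-associated protein 70, from 26.1 ± 2.35 to 33.2 ± 1.77 TPM (log2 change 0.34, adjusted p = 0.00577), and PAS_chr4_0074, from 87.9 ± 1.81 to 108 ± 5.10 TPM (log2 change 0.29, adjusted p = 0.00110). PAS_chr1-4_0657 shares the description of the latter and lay at 69.1 ± 5.91 and 69.2 ± 4.25 TPM (95% interval of the log2 change -0.16 to 0.17). The ratio of PAS_chr4_0074 to PAS_chr1-4_0657 was 1.28 ± 0.123 in the control and 1.56 ± 0.0731 in the ILV3 strain, without overlap. An exact permutation test gave p = 0.1, two-sided, the smallest possible with 3 libraries against 3, for 1 of 5 such pairs compared.

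The remaining 2 falls in protein sorting were weak. The late endosomal protein PAS_chr2-1_0290 fell from 39.0 ± 3.62 to 31.4 ± 4.18 TPM (adjusted p = 0.0326), a call lost with quantile normalization (0.0636), without control replicate 1 or 3 and without ILV3 replicate 2 or 3 (0.0583 to 0.107, range over all alternatives 0.00686 to 0.107). In 1 of those settings, without ILV3 replicate 2, its log2 change was -0.21 in place of -0.31. The small subunit of the AP-3 adaptor (PAS_chr3_0122), a coat that carries cargo straight from Golgi to vacuole, fell from 37.4 ± 0.881 to 33.5 ± 0.940 TPM (adjusted p = 0.0358). Its call was lost with the block (0.117), with median-ratio scaling (0.0708), with quantile normalization (0.153), with robust empirical Bayes (0.0519) and without any 1 library other than control replicate 2 (0.0572 to 0.127, range 0.0280 to 0.153). The dynamin-like GTPase of vacuolar sorting (PAS_chr1-4_0644), which pinches off vesicles, lay at 102 ± 4.82 and 102 ± 5.33 TPM (95% interval of the log2 change -0.13 to 0.13). The sorting kinase PAS_chr3_0042 lay at 29.2 ± 1.62 and 25.7 ± 1.76 TPM without overlap (adjusted p = 0.0655), and in 3 alternatives it was called lower, these being the omission of control replicate 2 (0.0306), quantile normalization (0.0391) and median-ratio scaling (0.0344, range 0.0306 to 0.213).

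ESCRT and multivesicular body genes fell in 4 of 5 cases, where 27.2% of all tested genes fell. Their summed level was 386, 372 and 363 TPM in the control strain and 318, 321 and 312 TPM in the ILV3 strain, and these sums did not overlap (ratio 0.848). The most abundant was a subunit of ESCRT-III (PAS_chr1-4_0023), the polymer that pinches vesicles into the endosome, which fell from 193 ± 13.4 to 167 ± 3.21 TPM (log2 change -0.21, adjusted p = 0.0119). This call was lost with median-ratio scaling (adjusted p = 0.0655) and quantile normalization (0.0865, range 0.00333 to 0.0865). The myristoylated ESCRT-III subunit (PAS_chr4_0420) fell from 79.1 ± 2.98 to 68.5 ± 2.39 TPM (log2 change -0.20, adjusted p = 0.00890). The ESCRT-II component PAS_chr3_0312, of the complex that starts ESCRT-III assembly, lay at 41.6, 35.2 and 37.8 TPM in the control strain and at 29.0, 30.8 and 28.4 TPM in the ILV3 strain (log2 change -0.36, SE 0.07, adjusted p = 0.00257). The largest fall was in PAS_chr1-4_0165, a class E protein of the sorting pathway, from 24.1 ± 1.58 to 17.5 ± 2.43 TPM (log2 change -0.45, adjusted p = 0.00591). PAS_FragB_0049, described as sorting-associated protein 27, which in Saccharomyces cerevisiae recruits the other complexes to the endosome, lay at 38.8 ± 4.04 and 34.4 ± 2.35 TPM. It did not pass (adjusted p = 0.142) but did without control replicate 2 (0.0151, range 0.0151 to 0.368). Of 2 ESCRT-I components left out by the wording rule, PAS_chr2-1_0182 rose from 18.2 ± 1.32 to 22.0 ± 0.465 TPM (log2 change 0.26, adjusted p = 0.0142, and 0.0512 without ILV3 replicate 1, range 0.00108 to 0.0512), and PAS_chr3_0136 lay at 15.2 ± 2.78 and 14.3 ± 1.21 TPM. A gene outside the rule, described by a positive role in multivesicular body sorting (PAS_chr1-1_0369), rose from 26.9 ± 1.76 to 31.8 ± 2.11 TPM (log2 change 0.23, adjusted p = 0.0250). Its call was lost without control replicate 2 or 3 or ILV3 replicate 1 or 2 (0.0504 to 0.101).

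Retromer, recycling and endocytosis genes differed by less. With limma 0 of the 3 retromer and recycling genes passed, and 1 had an unadjusted p under 0.05. The retromer subunit PAS_chr1-4_0503 lay at 54.9 ± 0.890 and 54.2 ± 2.97 TPM (95% interval of the log2 change -0.14 to 0.10). A further retromer subunit, PAS_chr2-1_0789, lay at 40.3 ± 1.55 and 36.3 ± 2.04 TPM (adjusted p = 0.0694), and was called lower with median-ratio scaling (0.0497), without control replicate 2 (0.0360) and without ILV3 replicate 2 (0.0430, range 0.0360 to 0.207). The F-box protein of plasma membrane protein recycling (PAS_chr4_0861) lay at 44.6 ± 2.23 and 42.9 ± 3.44 TPM (95% interval -0.22 to 0.10). In endocytosis 0 of 2 genes passed with limma, and 0 had an unadjusted p under 0.05. They were a putative aminophospholipid flippase (PAS_chr1-4_0233), which moves lipids between membrane leaflets, at 37.4 ± 1.31 and 35.1 ± 1.17 TPM, and a peripheral membrane protein (PAS_chr2-1_0066) at 12.6 ± 1.43 and 12.3 ± 0.257 TPM. The 95% intervals of their log2 changes were -0.21 to 0.04 and -0.24 to 0.19.

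In fusion and tethering 1 of 4 genes rose and 3 did not pass. The riser was a t-SNARE of endosome-derived vesicles (PAS_chr3_0048), one of the proteins that zip membranes together. It lay at 148, 152 and 138 TPM in the control strain and at 181, 174 and 185 TPM in the ILV3 strain, without overlap (log2 change 0.30, SE 0.05, adjusted p = 0.000919). The Sec1/Munc-18 family protein (PAS_chr1-1_0150), which guides SNARE assembly, lay at 63.0 ± 4.65 and 59.4 ± 2.72 TPM. The palmitoyltransferase of Vac8 (PAS_chr1-4_0126) lay at 52.2 ± 1.67 and 49.4 ± 0.340 TPM. The shared subunit of the HOPS and CORVET tethers (PAS_chr3_0210), which hold membranes together before fusion, lay at 23.4 ± 1.68 and 24.4 ± 1.00 TPM (95% interval of the log2 change -0.10 to 0.23).

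Of 7 other vacuolar and endosomal membrane proteins 1 rose, 4 fell and 2 did not pass. The lowest log2 change of all 78 genes was that of PAS_chr1-1_0353, described as a vacuolar integral membrane protein without a stated function. It lay at 53.0, 52.7 and 57.7 TPM in the control strain and at 30.5, 30.4 and 34.3 TPM in the ILV3 strain, means that differ 1.72-fold without overlap (log2 change -0.76, SE 0.07, adjusted p = 2.01e-05). PAS_chr2-1_0566, a vacuolar protein of unknown function, fell from 72.5 ± 3.85 to 51.9 ± 1.25 TPM (log2 change -0.47, adjusted p = 0.0001). PAS_chr1-1_0168, a membrane protein that reaches the vacuole by the biosynthetic sorting pathway, fell from 54.3 ± 1.58 to 39.4 ± 1.53 TPM (log2 change -0.45, adjusted p = 0.000121). The phosphorylated membrane protein that interacts with Atg13 (PAS_chr1-4_0101) fell from 128 ± 2.97 to 115 ± 3.01 TPM (adjusted p = 0.0169). This call was lost with the block (0.0566), with quantile normalization (0.195), without control replicate 1 (0.0679) and without ILV3 replicate 3 (0.0667, range 0.0139 to 0.195). The riser was an endosomal protein that regulates cell polarity (PAS_chr4_0430), at 152, 161 and 157 TPM in the control strain and 185, 192 and 188 TPM in the ILV3 strain (log2 change 0.27, adjusted p = 0.000806).

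Further genes of the system fell outside the 78 by wording. Of 13 genes that the rule's second pattern left out, 3 rose and 4 fell, proteinase A among them. Without ILV3 replicate 1 the risers were 1 in place of 3, and without control replicate 1, control replicate 3 or ILV3 replicate 3 the fallers were 2 in place of 4. Large neutral amino acids are exported from the vacuole by the product of PAS_chr2-2_0343, which rose from 206 ± 4.37 to 237 ± 6.79 TPM (log2 change 0.20, adjusted p = 0.00370). Genes described as putative iron transporters of intravacuolar stores moved in opposite directions. PAS_chr2-1_0427 rose from 18.4 ± 0.480 to 23.1 ± 2.40 TPM (log2 change 0.31, adjusted p = 0.0128, and 0.0560 without ILV3 replicate 1). PAS_chr4_0619 fell from 65.0 ± 1.56 to 51.1 ± 0.981 TPM (log2 change -0.34, adjusted p = 0.000330). Of 16 more genes whose descriptions name such machinery without the rule's words, 3 rose and 8 fell, the carboxypeptidase Y pair of enzyme and inhibitor among the fallers. Of these 16 genes, 4 are described as a sorting nexin, a protein type that binds endosomal lipids and shapes tubules. All 4 fell, where 27.2% of all tested genes fell. Sorting nexins described in other words were not reached. Their largest fall was that of PAS_chr2-1_0389 from 139.9 ± 6.34 to 93.4 ± 3.66 TPM (log2 change -0.58, adjusted p = 2.32e-05). For 2 of the 4 the call was not stable, PAS_chr3_0639 losing it with quantile normalization (adjusted p = 0.0535, range 0.00702 to 0.0535) and PAS_chr2-2_0030 with the block (0.0502) and without control replicate 1 or 3 or ILV3 replicate 3 (0.0564 to 0.0786, range 0.00773 to 0.0786). The regulatory subunit of the Atg1 signalling complex (PAS_chr2-2_0432) fell from 64.4 ± 2.20 to 54.1 ± 3.18 TPM (log2 change -0.25, adjusted p = 0.00616). The phosphatidylinositol 3-kinase (PAS_chr4_0478), which makes the lipid that marks endosomes, lay at 34.7 ± 1.77 and 37.9 ± 1.73 TPM and did not pass (adjusted p = 0.130), but was called higher with median-ratio scaling (0.0158) and quantile normalization (0.00478). A receptor-like membrane glycoprotein similar to Pep1/Vps10 (PAS_chr3_0327), the sorting receptor of carboxypeptidase Y in Saccharomyces cerevisiae, rose from 51.2 ± 0.646 to 65.5 ± 2.14 TPM (log2 change 0.35, adjusted p = 0.000321).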

How the data were processed

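Per the labels' protocols, stranded mRNA libraries were made from total RNA of 6 cultures, 3 per strain. HISAT2, TopHat2 and DESeq2 are named in the submitters' processing notes; the sources used here give neither their roles and versions nor a genome build or annotation. The values the authors deposited as FPKM sum to 1000000 per library and were treated as TPM; their scaling by gene length was not checked. The authors' deposited log2 fold change and p-value were only compared with the fit here.

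The 5025 of 5030 genes whose mean reached 1 TPM were fitted on the log2(TPM + 1) scale in R 4.3.3 by limma 3.58.1 with its mean-variance trend, and p-values were adjusted by Benjamini-Hochberg over these genes. The procedure was also run on simulated data with independent noise in each library. That setting lacks the shared deviations of same-numbered replicates given below, so it cannot show the error rate of the calls here. Figures were drawn with matplotlib 3.10.9. The members, roles and lists were chosen with earlier results of these data known; the 12 roles came from the descriptions alone, 12 genes being assigned by hand. Named were, of the called members, those changed at least 2-fold, the 10 highest and 10 lowest whose mean reached 10 TPM and up to 4 per role, with the most abundant gene of each role and all genes of roles with up to 6. Other members were named after their values were seen. The reference gene table at hand held 0 of the 5030 gene IDs, so roles rest on the deposited descriptions.

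Same-numbered replicates deviated together from their strain means (r across genes 0.223, 0.126 and 0.209, each above 0.1). Differently numbered replicates gave r from -0.220 to 0.0412. A pairing by number is thus read from the data only, since the labels do not state a shared day or batch. No block was used in the fit, and the blocked value is given where it changed a call. Tried as alternatives were a pseudocount of 0.1 or 5, a filter at 10 TPM or none, median-ratio scaling, quantile normalization, no trend, robust empirical Bayes, the block, and each library left out.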

Additional observations from a re-analysis of the deposited data

How the results depend on the processing

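Of the 40 called members, 30 kept direction and call in every alternative, and 10 lost the call in at least 1. Of the members not called, 17 were called in at least 1 alternative. No call reversed its direction in any alternative. With the replicate number as a block 35 members were called, all among the 40, and 2211 of all tested genes in place of 2478. The 5 lost calls are given beside their genes. The block changed no other member's call, while the autophagy genes called lower went from 4 to 2. Leaving out 1 library gave 34 to 47 called members, and 2120 to 2689 called genes among all tested. Control replicate 2 was the library whose omission raised both counts, that of all genes to 2689 in place of 2478. Median-ratio scaling called 1 retromer gene lower. Quantile normalization gave 31 of the 40 calls and 41 in all, with 4 sorting genes, 7 proton pump genes, 1 phosphate store gene and 1 transporter called higher, and 1 proton pump gene and 2 autophagy genes called lower. Without 1 library the genes called lower numbered 2 to 5 in autophagy, 2 to 5 in protein sorting, 1 to 3 in the phosphate store, 0 to 1 in retromer and 0 to 1 in the proton pump. Among the genes left out by wording, 1 to 3 were then called higher and 2 to 5 lower. Under the block 2 described genes outside the 78 also lost their call. The cause of these differences was not tested. The unknown depth and 3 libraries per strain limit what could be detected among changes this small.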
